A study of Oryza sativa Japonica Group with 4 samples.

Results

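Metallothionein and antioxidant genes were followed in rice panicles through 6 genes of Oryza sativa Japonica Group: the metallothionein genes MT-1 (LOC4351213), MT4A (LOC4352580) and MT-1-4b (LOC4352582), the catalase gene CAT-A (LOC4328073), the peroxiredoxin gene R1C-Prx (LOC4344045) and the glutathione transferase gene GST1 (LOC4334347). They were taken by name from 17905 genes that had a probe set paired with them alone, and each is represented by its brightest such probe set over the 4 arrays. The names had been picked with differences on these same arrays in view, so their signals and ratios below are a description and carry no test. The samples at ripening, 10 to 15 days after pollination, were panicles of POLA RNAi lines of the T2 generation and of wild type. The RNAi lines are written as the RNAi line below. The samples at meiosis were panicles of the pola (polaris) mutant and of wild type, from early to late meiosis. Each of the 4 groups had 1 Affymetrix array, which held RNA pooled from 20 panicles of 10 greenhouse-grown plants. The sources used here do not give the mutant allele, the promoter of the RNAi construct, the number of RNAi lines pooled or the cultivar. Values are linear MAS5 signals, Affymetrix's summary of the probes of a probe set. With 1 array per group no difference has a replicate check, and precision is limited by there being 1 array a group.

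Metallothioneins are small proteins rich in cysteine that bind zinc, copper and other metals and can scavenge reactive oxygen. Catalase splits hydrogen peroxide in peroxisomes, peroxiredoxins reduce peroxides through a reactive cysteine, and glutathione transferases join glutathione to reactive compounds. In cereal grains the 1-Cys type of peroxiredoxin, to which R1C-Prx belongs, is known from the aleurone layer and the embryo, where it accumulates as the grain matures. In anthers, reactive oxygen is known to take part in the timed death of the tapetum, the layer that feeds the developing pollen.

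Tapetum and endosperm markers followed the labelled stages. All 4 tapetum genes (RTS, C4, C6, CYP703A3) were above the array median on both meiotic arrays, and 1 of 4 was so in each array at ripening. All 3 endosperm genes (GLUA-1, GLUA-3, GBSS1) were above it on both ripening arrays, and none was so at meiosis. The other lists did not separate the stages by this count. All 3 meiosis genes were above it on both meiotic arrays, but so were 2 in RNAi and 1 in wild-type panicles at ripening. All 3 embryo and aleurone genes measured were above it on both ripening arrays and in the mutant, and 2 in wild type at meiosis. Both leaf genes measured were above it on all 4 arrays. The summed signal of the 2 leaf genes measured of 3 (RBCS, CAB2R) was 34731 in RNAi and 32305 in wild-type panicles at ripening. At meiosis it was 25452 in mutant and 18225 in wild-type panicles. CAB2R made up most of these sums, and the 2 genes differed. RBCS read 3863 in RNAi and 5458 in wild-type panicles at ripening, and 5555 in mutant and 1880 in wild-type panicles at meiosis. The log2 ratios of line over wild type were -0.50 and 1.55 for RBCS, and 0.20 and 0.28 for CAB2R. The summed signal of the tapetum genes was 86979 in mutant and 59662 in wild-type panicles at meiosis. That of 3 meiosis genes (MEL1, PAIR1, SPO11-4) was 6077 in mutant and 6864 in wild-type panicles. The arrays differed in their dim signals. The median signal was 65.7 in RNAi panicles against 163 in wild-type panicles at ripening, and 51.8 in mutant panicles against 124 in wild-type panicles at meiosis, with 75th percentiles from 487 to 521. The 3' to 5' signal ratio of the GAPDH transcript, a sign of RNA integrity, was 3.32 in RNAi panicles against 2.01 in wild-type panicles at ripening, and 4.22 in mutant panicles against 2.04 in wild-type panicles at meiosis. Both measures move with line against wild type, as do the leaf and tapetum sums at meiosis, and their part in the differences below was not tested. In panicle RNA, fewer cells of a type and less RNA per cell cannot be told apart.

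The 3 metallothionein genes had 3 different patterns. MT-1 read 18103 in RNAi panicles against 9014 in wild-type panicles at ripening, and 1899 in mutant panicles against 953 in wild-type panicles at meiosis. It was thus higher in both lines than in the wild type of their stage, and about as much higher at ripening than at meiosis in either pair. As log2 ratios, taken after adding a pseudocount of 23.4 to each signal, MT-1 had 1.004 in the RNAi comparison and 0.98 in the mutant comparison, each line over wild type, so that 1 of these ratios lay just past and the other just short of a 2-fold difference. These ratios rest on different pairs of arrays. Quantile normalization gave an RNAi ratio of 0.65 and loess centring 0.72. The mutant ratio kept within 0.88 and 1.05 under the 8 other settings tried. Of these settings, 2 were rules for choosing a probe set, which cannot change a gene with 1 probe set of its own. Among the members, only CAT-A had more than 1. The ripening over meiosis ratio of MT-1 was 3.21 in wild type, and the RNAi line over the mutant gave 3.24.

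MT4A, a metallothionein gene also listed as OsMT-I-4a, differed with stage and little with line. It read 2713 in RNAi panicles against 3743 in wild-type panicles at ripening, and 286 in mutant panicles against 250.1 in wild-type panicles at meiosis. Both ripening arrays were above both meiotic arrays. The log2 ratio of ripening over meiosis was 3.78 in wild type and 3.15 for RNAi line over mutant, against -0.46 for RNAi line over wild type, while mutant over wild type gave 0.18. A second probe set, paired with MT4A and with 1 other gene, showed no such stage pattern: it read 19343 in RNAi panicles against 13667 in wild-type panicles at ripening, and 18101 in mutant panicles against 14666 in wild-type panicles at meiosis. What part of that signal came from MT4A cannot be told.

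MT-1-4b, also listed as MT4C, lies near MT4A in the reference's gene order, with 1 gene between them, and it behaved differently. It read 55.8 in RNAi panicles against 204 in wild-type panicles at ripening, and 248 in mutant panicles against 46.5 in wild-type panicles at meiosis. The high signals were therefore those of the mutant and of wild type at ripening, which were 4.79 and 1.25 times the medians of their arrays. The RNAi signal and the meiotic wild-type signal lay below the medians of theirs, and no signal was above 248. The log2 ratio was -1.52 for RNAi line over wild type, while mutant over wild type gave 1.96. With every signal below 163, the highest array median, raised to that value (a common floor), these ratios became -0.32 and 0.60, and the RNAi ratio was also under 2-fold after quantile normalization (-0.49), after loess centring (-0.30) and with the median signal as pseudocount (-0.95). A second probe set, paired with MT-1-4b and 2 other genes, read 413 on the mutant array and 41.0 on the wild-type array at meiosis, a log2 ratio of 2.76, and 76.0 on the RNAi array and 98.2 on the wild-type array at ripening, a ratio of -0.29. Both probe sets were thus past 2-fold in the mutant comparison, and in the RNAi comparison both were lower but 1 was past 2-fold. Metallothionein genes are similar in sequence, and the signals of close copies may not be fully separate on the array.

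**Figure D1:**
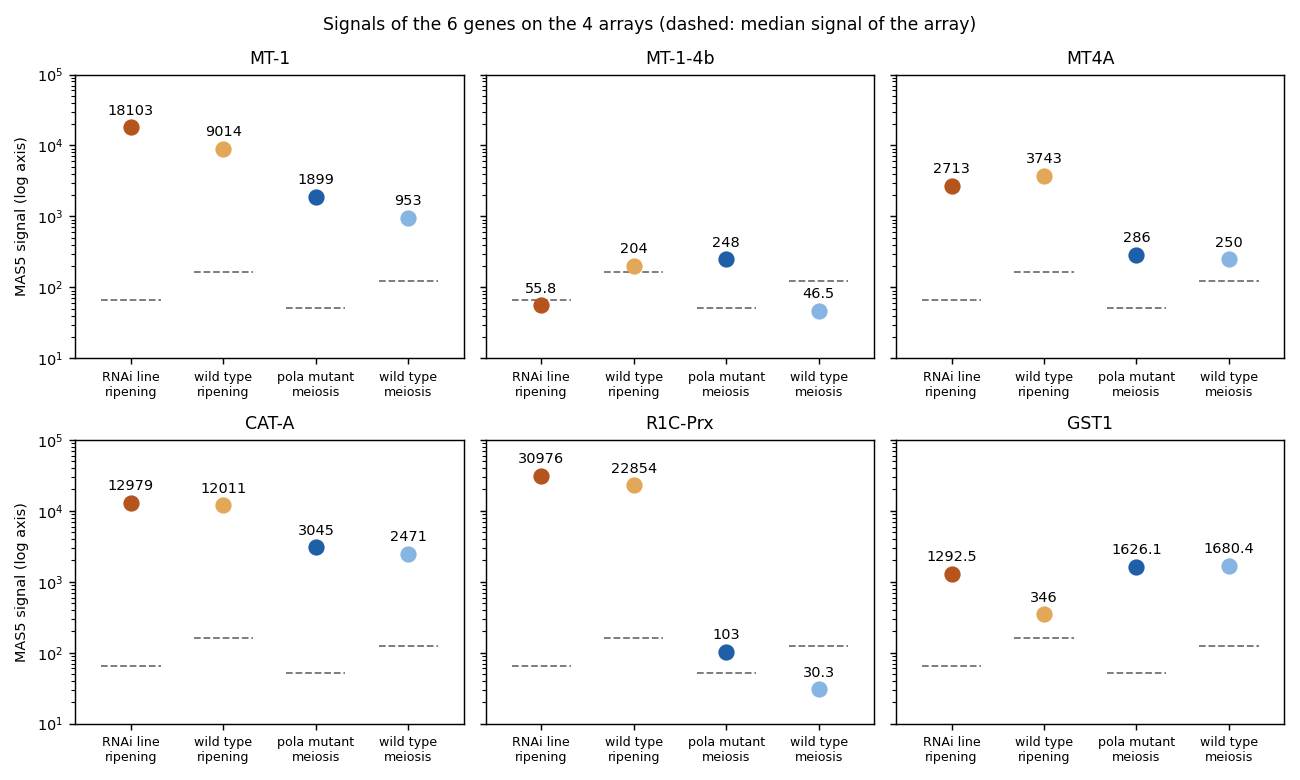
MAS5 signals (log axis) of the 6 genes, 1 point per array, with the arrays along the horizontal axis and the median signal of each array dashed. MT-1, MT4A, CAT-A and R1C-Prx are higher on both ripening arrays than on both meiotic arrays, GST1 is lowest in wild type at ripening (346), and MT-1-4b is at most 248 on any array.

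CAT-A, a catalase gene, was higher at ripening and differed little between each line and its wild type. It read 12979 in RNAi panicles against 12011 in wild-type panicles at ripening, and 3045 in mutant panicles against 2471 in wild-type panicles at meiosis. The ripening signals were 4.86 times the meiotic ones in wild type and 4.26 times for RNAi line over mutant, with log2 ratios of 2.27 and 2.08. Mutant over wild type gave 0.30 and RNAi line over wild type 0.11, which turned to -0.15 after quantile normalization and to -0.18 after loess centring.

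CAT-A had 3 probe sets paired with it alone, and they did not give the same size of stage difference. The other 2 had wild-type log2 ratios of ripening over meiosis of 2.76 and 3.61, and RNAi line over mutant ratios of 2.41 and 3.42. The widest ratio came from the probe set without the suffix _x_at, which marks probes that can bind other transcripts. That probe set read 5489 in RNAi panicles against 5960 in wild-type panicles at ripening, and 490.4 in mutant panicles against 468 in wild-type panicles at meiosis. All 3 put both ripening arrays above both meiotic arrays, and none had a ratio past 2-fold between a line and its wild type.

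**Figure D2:**
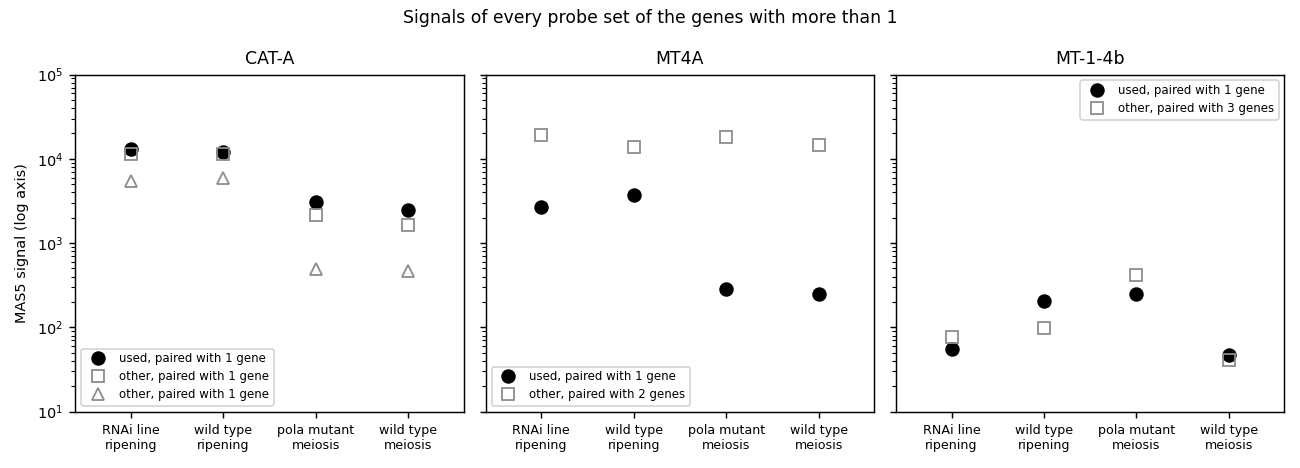
MAS5 signals (log axis) of every probe set paired with CAT-A, MT4A or MT-1-4b on the 4 arrays, filled for the probe set used and open for the others. The 3 CAT-A probe sets share the stage difference with different sizes, the shared MT4A probe set stays between 13667 and 19343, and both MT-1-4b probe sets are highest in the mutant.

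R1C-Prx, the 1-Cys peroxiredoxin gene, had the widest stage difference of the 6 genes. It read 30976 in RNAi panicles against 22854 in wild-type panicles at ripening, and 103 in mutant panicles against 30.3 in wild-type panicles at meiosis. The meiotic wild-type signal was below the median of its array, and the mutant signal was 1.99 times that of its own. Both lay below the common floor, so the stage fold is given as a lower bound. With that floor it was at least 139.9-fold in wild type and at least 189.6-fold for RNAi line over mutant. On the log2 scale these bounds are 7.13 and 7.57. The embryo and aleurone markers (RAB21, EM, LEA19; 3 of 5 measured, none at 0) moved with it, with summed signals of 78951 in RNAi panicles against 56092 in wild-type panicles at ripening, and 924 in mutant panicles against 492 in wild-type panicles at meiosis.

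Between lines, R1C-Prx differed less. RNAi line over wild type gave a log2 ratio of 0.44, which was 0.07 after quantile normalization and 0.10 with loess centring. Mutant over wild type gave 1.23, past 2-fold, but both signals lay below the common floor, with which no fold is given. Of the embryo and aleurone markers in the same comparison, RAB21 had 668 in mutant and 47.5 in wild-type panicles, EM had 110 in mutant and 224 in wild-type panicles, and LEA19 had 146 in mutant and 220.4 in wild-type panicles. Their part in the R1C-Prx difference was not tested.

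GST1, a glutathione transferase gene also listed as GSTU1, of the tau class, was the member that was lower at ripening in wild type. It read 1292.5 in RNAi panicles against 346 in wild-type panicles at ripening, and 1626 in mutant panicles against 1680.4 in wild-type panicles at meiosis. The wild-type array at ripening stood apart from the other 3, which lay within 1292.5 and 1680.4. The log2 ratio of RNAi line over wild type was 1.83, or 3.74-fold. It was the 129th highest of 16291 genes whose brighter signal reached the median of its array. It stayed between 1.64 and 2.04 under all 8 other settings, of which the 2 rules for probe sets could not change it. GST1 had only 1 probe set, so no second reading of the gene could be set beside it. Mutant over wild type gave -0.05. Ripening over meiosis in wild type gave -2.21, between -2.45 and -1.99 under the other settings, against -0.33 for RNAi line over mutant. The RNAi and the wild-type stage ratios share the wild-type array at ripening, so neither is a check on the other.

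**Figure D3:**
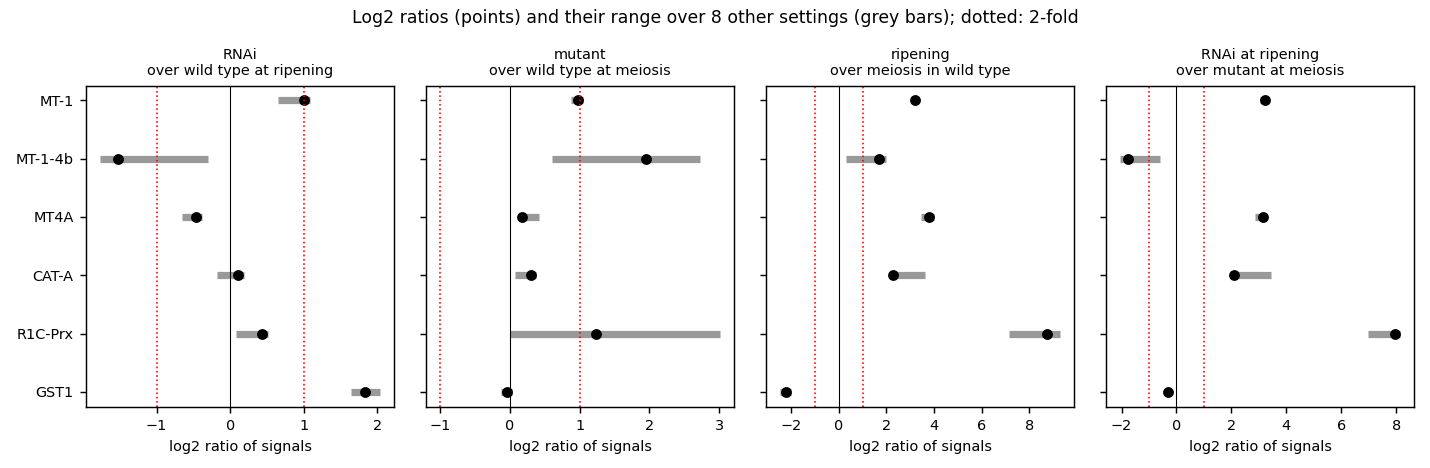
Log2 ratios of the 6 genes (points) in 4 comparisons, with grey bars from the lowest to the highest value over 8 other settings of scaling, pseudocount, floor and probe set; 2-fold is dotted. The bars of MT-1-4b and of R1C-Prx in the mutant comparison are wide, from 0.60 to 2.73 and from 0.00 to 3.02, while GST1 in the RNAi comparison keeps past 2-fold throughout.

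Set against all genes, a ratio was called 2-fold when its log2 size reached 1 and its brighter signal was at least the median of that array. All 6 genes met that signal filter in every comparison, MT-1-4b in each of them and R1C-Prx in the mutant and wild-type stage comparisons through their brighter array alone. For RNAi line over wild type, MT-1 and GST1 were higher and MT-1-4b lower, where 3.54% of 16291 genes were 2-fold higher and 7.2% lower. For mutant over wild type, MT-1-4b and R1C-Prx were higher and none lower, where 2.22% of 16082 genes were higher and 4.26% lower. For ripening over meiosis in wild type, 5 genes were higher and GST1 lower, where 15.3% of 16235 genes were higher and 16.3% lower. For RNAi line over mutant, 4 genes were higher and MT-1-4b lower, where 15.7% of 16766 genes were higher and 16.8% lower. Since the genes were picked by such differences, these counts are not read as more than that.

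The pair of wild-type arrays and the pair of RNAi and mutant arrays have no array in common, so they show the stage difference separately, although in the second pair the kind of line differs along with the stage. MT-1, MT4A, CAT-A and R1C-Prx were 2-fold higher at ripening in both. Of all genes called higher in the wild-type pair, 72.2% were also called in the other pair, and of those called in the other pair 68.4% were also called in wild type. GST1 was 2-fold lower in the wild-type pair only, and MT-1-4b was higher in the wild-type pair and lower in the other, with log2 ratios of 1.70 and -1.78. With the common floor these became 0.32 and -0.60, both within 2-fold. Of all genes called lower in the wild-type pair, 76.4% were also called lower in the other pair, and 71.9% the other way round.

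**Figure D4:**
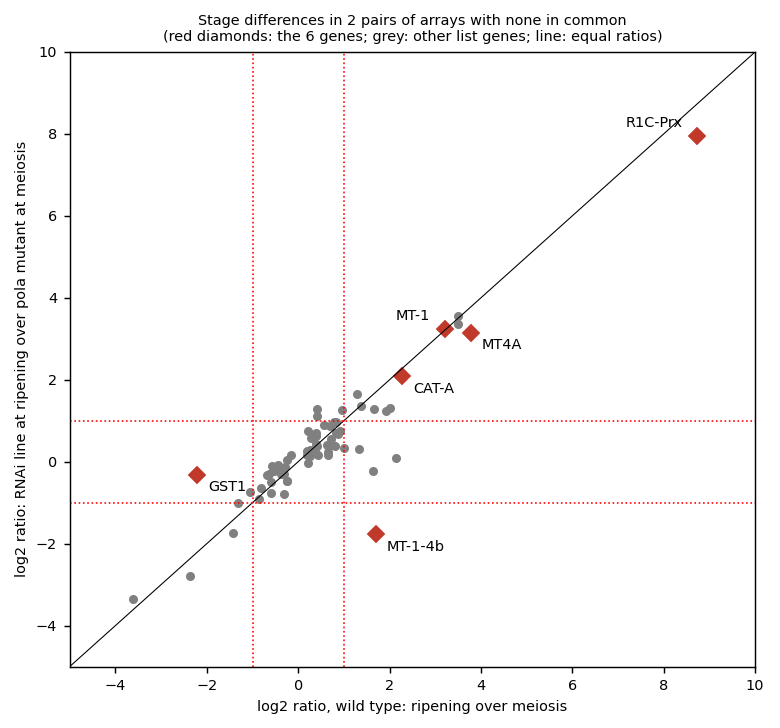
Log2 ratio of ripening over meiosis in wild type (horizontal) against the log2 ratio of the RNAi line at ripening over the mutant at meiosis (vertical), 1 point per gene, for the 6 genes (red diamonds) and the other measured genes of the antioxidant lists (grey); 2-fold is dotted. MT-1, MT4A, CAT-A and R1C-Prx lie near the line of equal ratios, and MT-1-4b (1.70 and -1.78) and GST1 (-2.21 and -0.33) lie away from it.

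The wider metal-binding and antioxidant system was described through 7 lists with 84 genes, the 6 genes among them, of which 70 had a probe set of their own. For RNAi line over wild type, 2 of 69 genes with a measurable signal were 2-fold higher and 2 lower, where 3.54% and 7.2% of all genes were. For mutant over wild type 4 of 67 were higher and none lower, where 2.22% and 4.26% of all genes were. Without the members, the counts were 0 higher and 1 lower of 63 for the RNAi line, and 2 and 0 of 61 for the mutant. Beside the members, the list genes past 2-fold were thus 3. The glutaredoxin gene GRXC1 was lower in the RNAi line, with 56.6 against 255 in wild type, a log2 ratio of -1.80 that was -0.64 with the common floor, -0.88 after quantile normalization and -0.76 after loess centring. The glutaredoxin genes GRXC10 and GRXS5 were higher in the mutant, GRXC10 with 571 against 244 in wild type and GRXS5 with 2212 against 1014. Their ratios of 1.15 and 1.11 stayed past 2-fold with the floor, and were 1.25 and 1.001 after quantile normalization. With the median signal as pseudocount, the 4 list genes higher in the mutant, members included, became 2. The list medians were 0.29 for the RNAi line and 0.23 for the mutant, against 0.07 and 0.04 over all genes. After quantile normalization they were 0.07 and 0.13, against 0.05 and 0.03 over all genes.

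None of the 4 superoxide dismutase genes, whose enzymes turn superoxide into hydrogen peroxide, was past 2-fold between a line and its wild type. Nor was any of the 10 measured genes of the ascorbate-glutathione cycle, which removes hydrogen peroxide by way of ascorbate. Over all genes, 3.54% were higher and 7.2% lower in the RNAi line, and 2.22% and 4.26% in the mutant. With shares this small, the lack of a call in lists this short is not read as a result. The superoxide dismutase ratios lay between 0.16 and 0.45 in the RNAi line and between -0.02 and 0.62 in the mutant. CAT-B, the other catalase gene measured, read 5552 in RNAi panicles against 4772 in wild-type panicles at ripening, and 4975 in mutant panicles against 5352 in wild-type panicles at meiosis. Its 4 signals lay close together, unlike those of CAT-A. CAT-B was singled out after its values were seen, as were MT-2, MT2B and MT2C below.

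With stage, 16 of 69 list genes were 2-fold higher at ripening and 6 lower in wild type. Over all genes 15.3% were higher and 16.3% lower. The list median was 0.38 against 0.00 over all genes. For RNAi line over mutant 14 of 69 were higher and 5 lower, where 15.7% and 16.8% of all genes were. The list median was 0.27 against 0.01. Without the members, 11 of 63 were higher and 5 lower in wild type, and 10 and 4 of 63 in the other pair. Of the higher genes, members included, 11 were shared between the pairs, which is 68.8% of the wild-type ones and 78.6% of the others. Over all genes these shares were 72.2% and 68.4%. Of the lower genes, 4 were shared, 66.7% and 80.0%, where over all genes these shares were 76.4% and 71.9%.

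Of the 7 metallothionein genes measured, 5 were 2-fold higher at ripening in wild type, where 15.3% of all genes were. The list median was 1.91. MT-1, MT4A and MT-1-4b, picked for their differences, were among these 5, and the others were MT1B and MT-2. MT1B read 7549 in RNAi panicles against 5632 in wild-type panicles at ripening, and 711 in mutant panicles against 477 in wild-type panicles at meiosis, a wild-type log2 ratio of 3.50. MT-2 had a ratio of 1.91 in wild type and 1.24 for RNAi line over mutant, which was 0.83 after quantile normalization. The type 2 genes MT2B and MT2C had ratios between 0.38 and 0.64 in both pairs, and their lowest signals were 22138 and 29058, in wild type at meiosis. After quantile normalization these ratios turned negative, between -0.39 and -0.26.

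**Figure D5:**
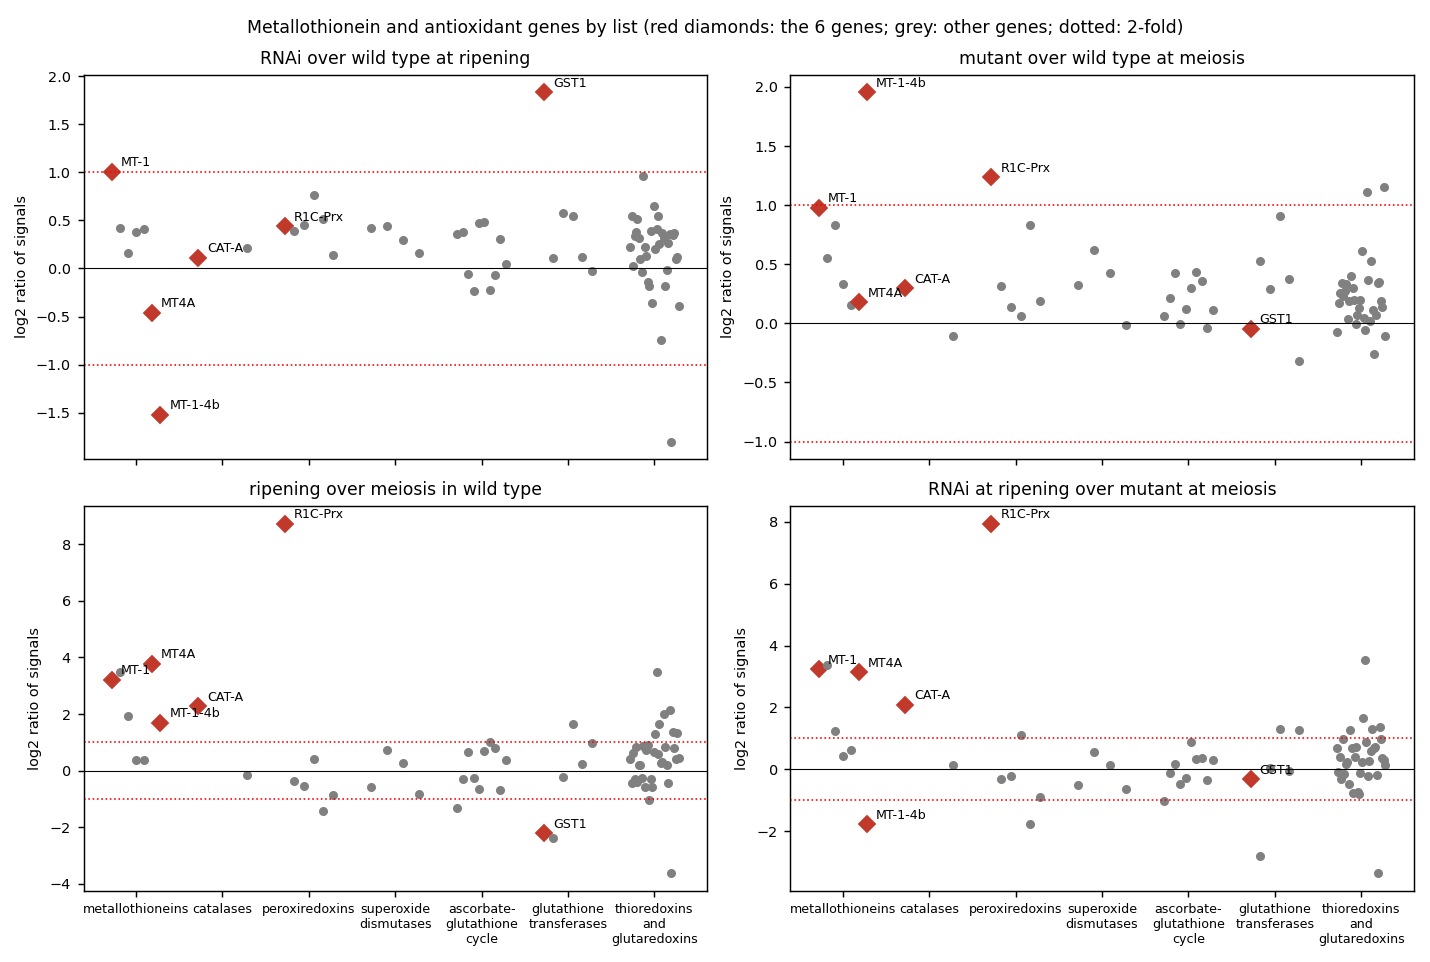
Log2 ratios of the genes of 7 lists that met the signal filter, 1 panel per comparison, with the 6 genes as red diamonds and 2-fold dotted. Between a line and its wild type most points lie within 2-fold, and with stage 5 of 7 metallothioneins lie above it in wild type, and 4 above and 1 below it for RNAi line over mutant.

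In the peroxiredoxin list both directions were seen with stage. Among peroxiredoxins, which reduce peroxides, R1C-Prx was higher at ripening and PRXIIE-2 lower, with 810 in RNAi panicles against 559 in wild-type panicles at ripening, and 2781 in mutant panicles against 1552 in wild-type panicles at meiosis. PRXIIE-2 was past 2-fold lower in both pairs, with -1.75 for RNAi line over mutant and -1.44 in wild type. PRXIIE-1 was higher for RNAi line over mutant, with 1.11, and had 0.41 in wild type. In the ascorbate-glutathione cycle, the cytosolic ascorbate peroxidase gene APX1 was lower in both pairs, with -1.02 for RNAi line over mutant and -1.32 in wild type, and APX8, a chloroplast form, was higher in wild type with 1.004 and had 0.34 in the other pair.

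Among glutathione transferases, GST-I was lower at ripening in both pairs, unlike GST1. It read 318 in RNAi panicles against 294 in wild-type panicles at ripening, and 2354 in mutant panicles against 1623 in wild-type panicles at meiosis. The transferase gene gst2 was higher in both pairs, with 1.30 for RNAi line over mutant and 1.66 in wild type, and GSTU6 in the first of these pairs, with 1.26 against 0.97 in wild type. In the list of thioredoxins and glutaredoxins, proteins that reduce disulfides, GRXS3 was higher in both pairs, with 805 in RNAi panicles against 542 in wild-type panicles at ripening, and 47.4 in mutant panicles against 26.7 in wild-type panicles at meiosis. GRXC3, also listed as ROXY2, was lower in both, with 36.7 in RNAi panicles against 15.9 in wild-type panicles at ripening, and 589 in mutant panicles against 461 in wild-type panicles at meiosis. In wild type GRXS9 was higher with 2.02 and GRXC1 with 2.14, which was 0.64 with the common floor, and the thioredoxin reductase gene NTRB was lower with -1.05, which was -0.94 after loess centring and also just under 2-fold after quantile normalization. For RNAi line over mutant, GRXS2 was higher with 1.66 and GRXC6 with 1.37, which was 0.99 after quantile normalization.

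The genes with the most similar profiles were sought among 2285 genes with a descriptive name and a signal of at least 163 on some array. The measure was the root mean square difference of log2 signals, after adding the pseudocount of 23.4, centred on each gene's mean over the 4 arrays. At dim signals it depends on that pseudocount. For MT-1 the closest genes were NAC2, MT1B and GRXS3, with differences of 0.25, 0.28 and 0.28. Both meiotic signals of NAC2 and of GRXS3 lay below the common floor. For MT4A the closest genes were AT5, OsWRKY76 and ELA3, with 0.14, 0.15 and 0.18. Their meiotic signals, from 9.50 to 46.6, all lay below the common floor, unlike those of MT4A. For CAT-A the closest genes were OSK3, DXPS and SAT2, with 0.07, 0.08 and 0.10. The profile of R1C-Prx was closest to that of LTP-2, a lipid transfer protein gene, with 0.13, followed by the germin-like gene GER3 with 0.35 and Agglutinin with 0.39. LTP-2 read 32407 in RNAi panicles against 23674 in wild-type panicles at ripening, and 141 in mutant panicles against 35.5 in wild-type panicles at meiosis. Like those of R1C-Prx, both meiotic signals of LTP-2, of GER3 and of Agglutinin lay below the common floor.

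For GST1 the closest profile was that of MAN4, with 0.10, followed by OsPP2C16 with 0.25 and the calmodulin-like gene CML3 with 0.28. MAN4 read 183 in RNAi panicles against 27.6 in wild-type panicles at ripening, and 221 in mutant panicles against 197 in wild-type panicles at meiosis. The wild-type array at ripening was again the lowest, and its MAN4 signal lay below the common floor. The CML3 signals did so on all arrays but that of wild type at meiosis. MT-1-4b had no close match: CML16, pinA and NH1 came nearest, with 0.45, 0.45 and 0.47. CML16, a calmodulin-like gene, read 1834 in RNAi panicles against 4617 in wild-type panicles at ripening, and 3280.1 in mutant panicles against 1949 in wild-type panicles at meiosis, so that the mutant and wild type at ripening were its brighter arrays, as for MT-1-4b. Within the 6 genes the smallest differences were 0.60 for MT-1 and MT4A, 0.66 for MT-1 and CAT-A and 0.68 for MT4A and CAT-A, and the largest was 4.85, for R1C-Prx and GST1.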

How the data were processed

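The deposited table holds intensity values, MAS5 signals per the submitters' processing notes (version, scanner and detection calls not given in the sources used here), with a 2% trimmed mean of 500.1 on each array. The label texts of the RNAi sample disagree: its description names wild lines, its title, source and genotype the RNAi line, which was followed.

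After removal of 187 control probe sets, 57194 remained: 22436 paired with 1 gene, 95 with several and 34663 with none listed. Names came from the RefSeq gene table of rice assembly ASM3414082v1, which served for names and gene order. The members and lists were chosen with earlier results of these data known. The lists were designed as words of descriptions and, since that table pairs names only, were translated to gene names; no glutathione peroxidase gene was found by name. The pseudocount of 23.4 was the 25th percentile of all signals. No test was run. List genes named are up to 3 per list, direction and comparison. Alternatives were 3 scalings, 2 pseudocounts (5.85 and 103), a common floor of 163, 2 rules for probe sets, 2 filters and a 4-fold threshold. The steps were tested on simulated data, with 4-fold changes planted in bright probe sets of 2 arrays alike in scale. That does not bear on dim genes, on 2-fold differences or on arrays with unlike medians. Tables were handled with pandas 2.3.3 and numpy 2.4.6 under Python 3.11.15, loess with statsmodels 0.14.6, trimmed means with scipy 1.17.1, and plots with matplotlib 3.10.9.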

Additional observations from a re-analysis of the deposited data

Results flagged for a closer look

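MT-1-4b was past 2-fold in opposite directions in the 2 lines, with a log2 ratio of -1.52 for RNAi line over wild type at ripening and 1.96 for mutant over wild type at meiosis. The difference between these ratios was not tested, since each group had 1 array. The kind of line and the stage differ together here and cannot be told apart. Its signals in RNAi panicles at ripening and in wild-type panicles at meiosis, 55.8 and 46.5, were below the medians of their arrays.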

How the results depend on the processing

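For mutant over wild type, the 2 members past 2-fold became 1 with the median signal as pseudocount and 0 with the common floor, the 75th percentile filter or a 4-fold threshold, and the 4 list genes became 2, 2, 2 and 0. For RNAi line over wild type, the 3 members (2 higher, 1 lower) became 1 (higher) after quantile normalization, after loess centring and with the median signal as pseudocount, and 0 at 4-fold. The count of 4 list genes (2 higher, 2 lower) became 2 with each of these 3 settings. With the scalings both were higher, and they were GST1 and the thioredoxin gene OsTrx20, which was not among the 4. OsTrx20 read 121 in RNAi panicles against 51.1 in wild-type panicles at ripening, with a log2 ratio of 0.96 before the scalings. The count became 2 with the common floor or the 75th percentile filter, 0 at 4-fold and 7 with the mean over probe sets. With stage, the list count of 22 in wild type became 11 and that of 19 for RNAi line over mutant became 8 at 4-fold, and the other settings kept these and the member counts within 1.5 times. Of 192 single-gene values under alternatives, 175 kept direction and side of 2-fold, 12 dropped below it, 1 passed it and 4 small ones changed sign. The 2 rules for probe sets could change CAT-A alone, so the values of the other members under them were the same by design. The causes of the changes were not tested. No paired analysis was possible because each group had 1 array. Signals below the common floor limit MT-1-4b and the meiotic values of R1C-Prx.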
